A study of Mus musculus with 12 samples.

Results

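The 80 genes described here encode the cytosolic ribosomal proteins of the mouse, 32 of the small and 48 of the large subunit. They were chosen by name alone, as every gene symbol of the form Rps or Rpl with a number, plus Rpsa, Rplp0, Rplp1 and Rplp2. 84 symbols had this form, 4 of them annotated pseudogenes that were left out, and the 80 remaining genes stood among 18929 genes listed in the deposited tables. 77 are canonical ribosomal proteins, 31 small and 46 large, and 3 are paralogues (Rps27l, Rpl7l1 and Rpl22l1). The naming rule does not reach every ribosomal protein gene; Fau, Rpl36al and Rps27rt are among those outside it.

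RNA was sequenced from enteroids, three-dimensional cultures of intestinal epithelium grown from crypts, to ask what loss of the histone deacetylases HDAC1 or HDAC2 does to gene expression. The 3 groups, with 4 libraries each, were control enteroids from mice with villin-Cre alone, Hdac1-deficient enteroids (Hdac1-/-) and Hdac2-deficient enteroids (Hdac2-/-), in which villin-Cre had deleted floxed alleles. Enteroids of the last 2 groups are also called Hdac1-mutant and Hdac2-mutant. Villin-Cre is active in the intestinal epithelium, so all 3 groups carried the recombinase, and the mice were of a mixed C57BL/6J, 129SV and CD1 background. All cultures came from the jejunum and were harvested after 5 days in ENR medium, which contains EGF, Noggin and R-spondin. The methods name crypts from 1 mouse per genotype, and effects of the genotype and of the mouse cannot be told apart; nothing states that a group's libraries stem from separate animals. Ages and sexes of the mice are not used here.

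Each ribosome is built from a small subunit, which holds and decodes the messenger RNA, and a large subunit, which joins amino acids into a chain. A cell makes the ribosomal proteins in near-equal numbers, and their messenger RNAs are among the most abundant in growing cells. Most of these messages begin with a terminal oligopyrimidine tract, an unbroken run of C and T (U in the RNA) at the transcription start, through which mTORC1 and the RNA-binding protein LARP1 regulate their translation. In the intestinal epithelium, ribosome production is highest in the dividing cells of the crypt. Ribosomal protein genes have also left many processed pseudogenes in mammalian genomes, intronless copies made from messenger RNA, some nearly identical to their parent.

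Libraries held between 20693200 and 30658628 counts, and no pair of libraries within a group agreed within sampling noise. Levels are given as CPM, the count scaled to the library total and its TMM factor. Hdac1 was at 90.5 ± 2.87 CPM in control, 4.23 ± 0.841 in Hdac1-mutant and 75.3 ± 4.41 in Hdac2-mutant enteroids (SD, n = 4). Hdac2 was at 137 ± 4.39, 112 ± 3.7 and 75.9 ± 2.84 CPM in the same order. Each targeted gene was lowest in its own mutant. Enterocyte, goblet and Paneth markers were present in all libraries, while the summed fibroblast, endothelial and smooth muscle markers stayed at or below 0.508 CPM, with Col1a2, Col3a1, Dcn, Lum, Cdh5, Kdr, Emcn, Acta2 and Des not listed. Xist, the RNA that coats the inactive X chromosome, ranged from 1.41 to 1.72 CPM in control, from 776 to 1078 in Hdac1-mutant and from 494 to 677 in Hdac2-mutant enteroids, so the cultures differed in more than the deleted gene.

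RefSeq start windows on GRCm38.p6 were found for 60 of the 80 genes. Those of 9 genes are shown because they differ in the length of the run of C and T, the feature that this family is known for. Each line runs 15 bases to either side of the annotated start, in the direction of transcription, and capitals mark the longest run of C and T.
Rpl7a, chr2:26910792-26910821, plus strand: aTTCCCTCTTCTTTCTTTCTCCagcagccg
Rpl34, chr3:130730323-130730352, minus strand: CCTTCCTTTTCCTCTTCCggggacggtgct
Rpl35, chr2:39005117-39005146, minus strand: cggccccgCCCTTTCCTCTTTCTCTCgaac
Rpl15, chr14:18270972-18271001, minus strand: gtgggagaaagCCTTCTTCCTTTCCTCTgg
Rpl35a, chr16:33056467-33056496, plus strand: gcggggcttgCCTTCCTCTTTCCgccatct
Rps18, chr17:33955651-33955680, minus strand: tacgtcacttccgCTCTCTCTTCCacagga
Rpl22l1, chr3:28805493-28805522, plus strand: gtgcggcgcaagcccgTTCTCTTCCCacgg
Rps24, chr14:24490663-24490692, plus strand: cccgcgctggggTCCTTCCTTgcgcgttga
Rps2, chr17:24720048-24720077, plus strand: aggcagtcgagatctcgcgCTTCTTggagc
A run of at least 8 C or T bases lay within 50 bases of a start in 50 of the 60 genes (83.3%), against 39.3% of 27025 genes with a RefSeq window. Runs of at least 12 were found in 38.3% of the family and 10.6% of all genes. The short motif CTTTC on the sense strand, which can lie inside such a run, was present in 51.7% of the family and 14.6% of all genes. CGGAAG, searched on both strands, was present in 24 of the 60 genes and in 10.4% of all genes. The longest run in each window shown ranged from 21 bases in Rpl7a to 6 in Rps2. Within 50 bases of its start, Rps2 had a run of 10. A match describes letters, not use, and runs were not compared between genes that fell and genes that rose.

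The ribosomal protein genes took a smaller share of all counts in both mutants than in control. Small subunit genes held 2.99%, 2.73%, 2.72% and 2.92% of the counts in the 4 control libraries. They held 2.13%, 2.27%, 2.31% and 2.11% in Hdac1-mutant and 2.32%, 2.34%, 2.26% and 2.26% in Hdac2-mutant enteroids. No mutant library reached the lowest control library. The means were 2.84 ± 0.139%, 2.21 ± 0.0977% and 2.29 ± 0.0389% (SD, n = 4). Large subunit genes held 3.99 ± 0.184% of the counts in control, 3.12 ± 0.131% in Hdac1-mutant and 3.21 ± 0.0484% in Hdac2-mutant enteroids, again without overlap between control (3.83% to 4.21%) and either mutant (at most 3.27%). Together the 80 genes held 6.83 ± 0.323%, 5.33 ± 0.229% and 5.5 ± 0.0871%, a ratio to control of 0.779 and 0.806.

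**Figure D1:**
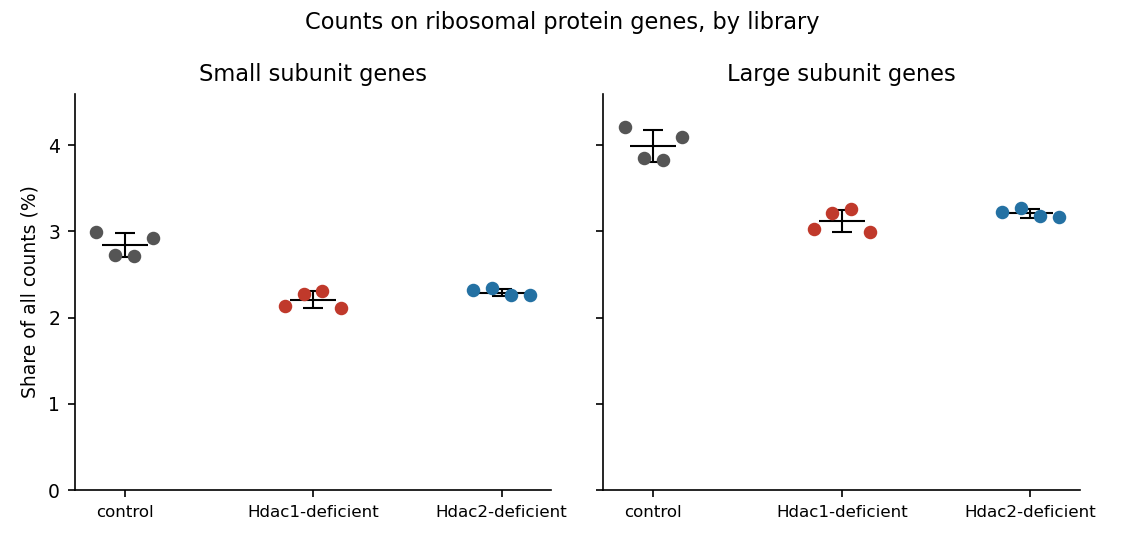
Share of all counts (%, vertical axis from 0) on small subunit genes (left) and large subunit genes (right) in the 12 libraries, by group. Points are libraries, and bars give the mean ± SD of 4 libraries. Control libraries lie between 2.72% and 2.99% for the small and between 3.83% and 4.21% for the large subunit, above every mutant library.

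A share can fall because other genes take more of the library. With the 50 most counted other genes removed from the totals, the ratios to control were 0.794 and 0.813, and the lowest control library (7.43%) stayed above the highest mutant library (6.42%). The subunits kept nearly the same balance. The ratio of small to large subunit counts was 0.71 ± 0.00241 in control, 0.707 ± 0.00198 in Hdac1-mutant and 0.715 ± 0.00217 in Hdac2-mutant enteroids. Counts of this kind give relative levels, and fewer cells rich in these messages cannot be told apart from less of each message per cell.

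In Hdac1-mutant enteroids, the messages of nearly the whole family were lower than in control. Of 32 small subunit genes 30 fell, 1 rose (Rps2) and 1 did not pass the test (Rps27l). Of 48 large subunit genes 46 fell and 2 rose (Rpl26 and Rpl34). Calls were made with edgeR's quasi-likelihood test at a Benjamini-Hochberg adjusted p of at most 0.05 over 14246 genes tested, of which 31.9% were lower and 32.7% higher. The median log2 fold change was -0.357 for each subunit, against -0.004 over all genes tested, and the falls ran from -0.13 to -0.70, so that the typical gene kept 0.779 of its control level. In 76 genes every mutant library lay below every control library and in 3 every mutant library lay above, against 30.1% and 28.5% of all genes tested. Only Rpl26 passed 2-fold upward and none downward, where 6.87% and 3.71% of all genes did.

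In Hdac2-mutant enteroids, the same comparison gave falls of similar size. Of the small subunit genes 29 fell, 1 rose (Rps2) and 2 did not pass the test (Rps7 and Rps27l). Of the large subunit genes 45 fell, 2 rose (Rpl26 and Rpl34) and 1 did not pass the test (Rpl3). Over the 14007 genes tested, 30.9% were lower and 31.4% higher. The medians were -0.312 for the small and -0.28 for the large subunit, against -0.004 over all genes. The falls ran from -0.11 to -3.18, the last being Rpl29, which stood apart from all others. 74 genes lay below control and 2 above without overlap of the libraries, against 28.3% and 27.9% of all genes. Rpl26 passed 2-fold upward and Rpl29 downward, against 5.45% and 2.84% of all genes. 74 genes fell in both mutants and 3 rose in both, and the share of all genes that did so is not given here. Both comparisons use the same 4 control libraries, so that the height of those libraries enters both.

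**Figure D2:**
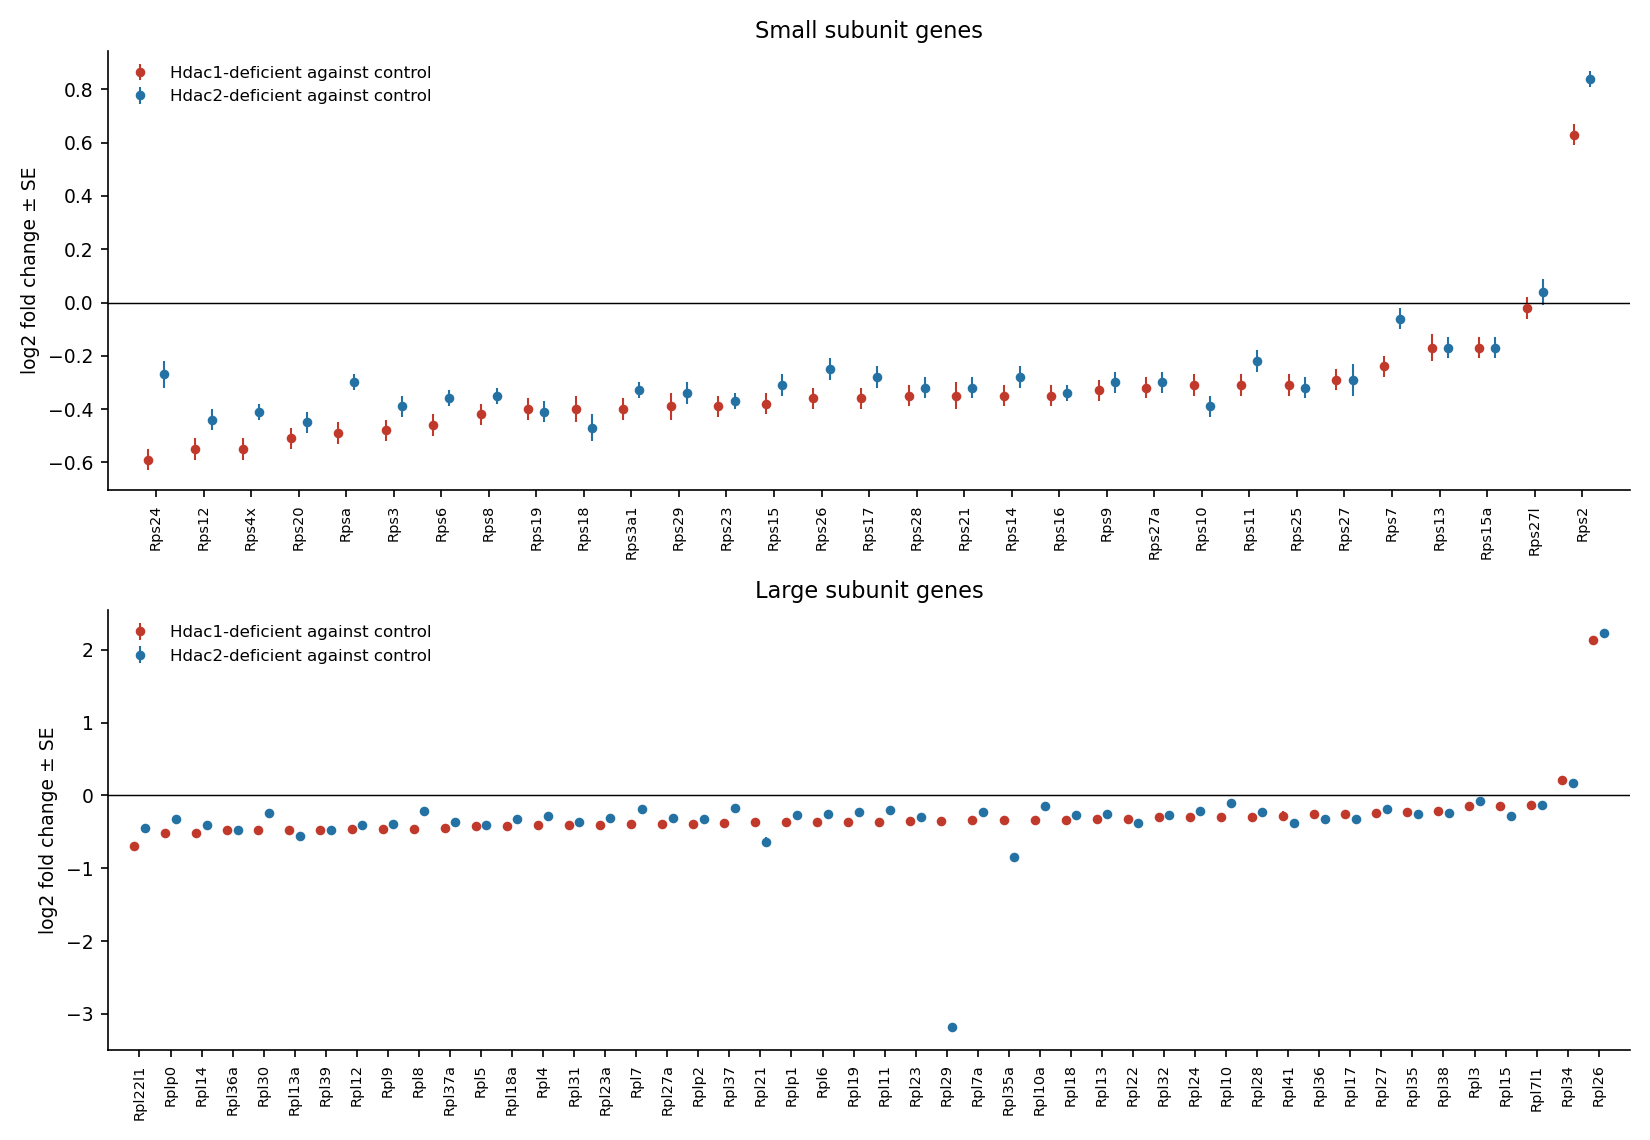
Log2 fold change ± SE (vertical axis) of 31 of the 32 small subunit genes (top) and 48 large subunit genes (bottom) in Hdac1-deficient (red) and Hdac2-deficient (blue) enteroids against control, ordered by the Hdac1 value. Nearly all points lie between -0.70 and -0.11; Rps2, Rpl26 and Rpl34 lie above 0 in both mutants, and Rpl29 lies at -3.18 in Hdac2-deficient enteroids alone.

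The P stalk, the arm of the large subunit that recruits elongation factors, fell as a set of 4 in both mutants, from -0.52 to -0.37 on the log2 scale in Hdac1-mutant and from -0.40 to -0.27 in Hdac2-mutant enteroids. Rplp0, the base of the stalk on which the P1 and P2 dimers sit, had the highest CPM of the family. It was at 2847, 2612, 2568 and 2764 CPM in control, at 1829, 1928, 1891 and 1835 in Hdac1-mutant and at 2157, 2179, 2098 and 2147 in Hdac2-mutant enteroids. The 3 groups did not overlap. Its log2 fold changes were -0.52 (adjusted p = 3.8e-10, edgeR) and -0.32 (adjusted p = 4.6e-08, edgeR). Rplp1, Rplp2 and Rpl12, the other stalk proteins, had values of -0.37, -0.39 and -0.46 in Hdac1-mutant and of -0.27, -0.33 and -0.40 in Hdac2-mutant enteroids.

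Rpl5 and Rpl11 form the 5S RNP with the 5S ribosomal RNA, a particle also known for binding MDM2 when ribosome assembly fails. Rpl5 fell by 0.42 in Hdac1-mutant and by 0.41 in Hdac2-mutant enteroids on the log2 scale. Rpl11 fell by 0.36 and 0.20. Of 7 small subunit genes on a list named for mRNA entry and decoding, 6 fell and 1 (Rps2) rose in each mutant. Not every protein on that list sits at that site. Rps12 was at 1532, 1342, 1343 and 1475 CPM in control, at 940.2, 994, 999 and 930.2 in Hdac1-mutant and at 1018, 1077, 1032 and 1036 in Hdac2-mutant enteroids. Control lay above both mutants, and the mutants lay apart by a narrow margin. The log2 fold changes of Rps12 were -0.55 (adjusted p = 1.3e-09, edgeR) and -0.44 (adjusted p = 7.0e-09, edgeR).

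Of 8 large subunit genes around the tunnel where the nascent chain leaves the ribosome, 7 fell and 1 (Rpl26) rose in each mutant. Of 16 genes mutated in Diamond-Blackfan anaemia, an inherited failure of red cell production, 15 fell and 1 rose in Hdac1-mutant enteroids, and 14 fell and 1 rose in Hdac2-mutant enteroids. These subsets, the P stalk included, fell about as often as the family, in which 76 and 74 of 80 genes fell, and show nothing particular to them. Rpsa, which also carries the name laminin receptor, fell by 0.49 and 0.30. Rps20, a protein of the small subunit head, fell by 0.51 and 0.45, and Rps18, another head protein, by 0.40 and 0.47. Rpl14 fell by 0.51 and 0.40, and Rpl8, close to the peptidyl transferase centre, by 0.46 and 0.21.

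4 of the genes lie on the X chromosome. Rps4x, a small subunit protein that in humans has a Y-linked counterpart, was at 1826, 1700.3, 1688 and 1774 CPM in control. It was at 1161, 1225, 1205 and 1147 in Hdac1-mutant and at 1354, 1319.9, 1276 and 1290.4 in Hdac2-mutant enteroids. No groups overlapped, with log2 fold changes of -0.55 (adjusted p = 6.5e-11, edgeR) and -0.41 (adjusted p = 5.2e-10, edgeR). Rpl36a fell by 0.48 and 0.47, Rpl39 by 0.47 and 0.48, and Rpl10, which completes the peptidyl transferase centre late in assembly, by 0.29 and 0.11. The median over the other protein-coding genes of the X chromosome was -0.021 in Hdac1-mutant and -0.038 in Hdac2-mutant enteroids.

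The 3 paralogues did not move together. Rpl22l1, the minor partner of Rpl22, was at 247, 214, 212 and 229 CPM in control, at 134, 144, 137 and 135 in Hdac1-mutant and at 160.5, 167, 167 and 161 in Hdac2-mutant enteroids. The 3 groups did not overlap, and its change of -0.70 in Hdac1-mutant enteroids (adjusted p = 4.8e-11, edgeR) was the steepest fall of the family there. In Hdac2-mutant enteroids it was -0.45 (adjusted p = 1.3e-08, edgeR). Rpl22 itself fell by 0.32 and 0.38. Rpl7l1, a paralogue of Rpl7 that acts in ribosome assembly, fell by 0.13 in both mutants, where Rpl7 fell by 0.39 and 0.19. Rps27l, a p53 target related to Rps27, was at 148, 128, 127 and 139 CPM in control, at 130.1, 135, 135 and 128 in Hdac1-mutant and at 133, 144, 134 and 140.2 in Hdac2-mutant enteroids. Its groups overlapped, with values of -0.02 (adjusted p = 0.64, edgeR) and 0.04 (adjusted p = 0.51, edgeR), while Rps27 fell by 0.29 in both.

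Each of the 3 genes that rose has listed copies elsewhere in the genome, as have most genes of the family that fell. In control, copies held a mean of 76.9% of the CPM on Rpl26 and its copies, 53.1% for Rps2 and 7.16% for Rpl34. The share was 18.4% for Rpl15 and 12.6% for Rpl29, which fell in both mutants. Rpl26 encodes a protein at the rim of the exit tunnel and is known as a regulator of p53 translation. It lies at chr11:68901583-68906989 on the plus strand (GRCm38). The listed gene Gm15772 on chromosome 5 aligned to it over 438 bases and differed at 2. Both differences are shown within 60 coding bases, with the differing base in capitals and positions counted from the first coding base of Rpl26. The Rpl26 stretches cross an intron in the genome, while those of Gm15772 are continuous.
Rpl26, chr11:68902421-68903216: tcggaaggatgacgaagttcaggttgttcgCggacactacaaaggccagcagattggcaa
Gm15772, chr5:3236577-3236636: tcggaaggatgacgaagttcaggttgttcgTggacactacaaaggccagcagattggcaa
Rpl26, chr11:68903268-68904372: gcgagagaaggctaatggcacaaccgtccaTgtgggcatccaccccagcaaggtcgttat
Gm15772, chr5:3236688-3236747: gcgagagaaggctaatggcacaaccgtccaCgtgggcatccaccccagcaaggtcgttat
The first difference is C177T and the second T288C, from Rpl26 to Gm15772, both stretches read on the plus strand of GRCm38. Reads of spliced messages without these bases match both places equally, except where they reach beyond the shared stretch. Those that cross an exon junction match Rpl26 in parts to either side of an intron and Gm15772 without a break.

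Rpl26 was at 136, 120.1, 125 and 134 CPM in control. It was at 549, 574, 582 and 549 in Hdac1-mutant and at 613, 604, 581 and 598 in Hdac2-mutant enteroids. Its copy Gm15772 went the other way, from 451, 414, 399.9 and 431 CPM in control to between 5.32 and 6.7 in Hdac1-mutant and between 5.94 and 8.62 in Hdac2-mutant enteroids. The gene and its copy exchanged places, and their sum moved far less than either. The sum was 553 ± 28.7 CPM in control, 569.6 ± 17.5 in Hdac1-mutant and 606 ± 14.2 in Hdac2-mutant enteroids (SD, n = 4). Counted alone, Rpl26 rose by 2.14 (SE 0.04, adjusted p = 1.5e-19, edgeR) and 2.23 (SE 0.04, adjusted p = 1.5e-21, edgeR) on the log2 scale. With the counts of all its listed copies added, its values were 0.05 (adjusted p = 0.25, edgeR) and 0.14 (adjusted p = 0.0017, edgeR).

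Rps2, which lines the entry of the mRNA channel, showed a partial exchange with its copies. It was at 758, 686, 705 and 728 CPM in control, at 1084, 1119, 1138 and 1066 in Hdac1-mutant and at 1307, 1301, 1261 and 1244 in Hdac2-mutant enteroids. Control libraries were lowest and Hdac2-mutant libraries highest, without overlap. Rps2-ps10, which differed from Rps2 at 5 of 879 aligned bases, was at 255, 248, 243 and 244 CPM in control and between 7.08 and 8.72 in all mutant libraries. Rps2-ps13, a copy on the X chromosome that differed at 7 of 882 bases, was at 581, 553, 539 and 551 CPM in control, at 395, 406, 428 and 402 in Hdac1-mutant and at 548, 472, 449 and 455 in Hdac2-mutant enteroids. Counted alone, Rps2 rose by 0.63 (adjusted p = 8.2e-12, edgeR) and 0.84 (adjusted p = 4.9e-15, edgeR). With its copies added the values were -0.00 (adjusted p = 0.97, edgeR) and 0.22 (adjusted p = 1.1e-05, edgeR), so that the rise in Hdac1-mutant enteroids was no longer seen.

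Rpl34, a large subunit protein, was at 290.3, 255, 249 and 278 CPM in control, at 299, 311, 321 and 297 in Hdac1-mutant and at 315, 305, 288 and 287 in Hdac2-mutant enteroids. Hdac1-mutant libraries lay above control and Hdac2-mutant libraries overlapped it. Its changes of 0.21 (adjusted p = 3.8e-04, edgeR) and 0.17 (adjusted p = 0.0049, edgeR) became 0.14 (adjusted p = 0.0093, edgeR) and 0.11 (adjusted p = 0.058, edgeR) with copies added. Of the genes that rose, Rpl34 alone stayed called higher in Hdac1-mutant enteroids, and Rps2 and Rpl26 alone in Hdac2-mutant enteroids, once copies were added.

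**Figure D3:**
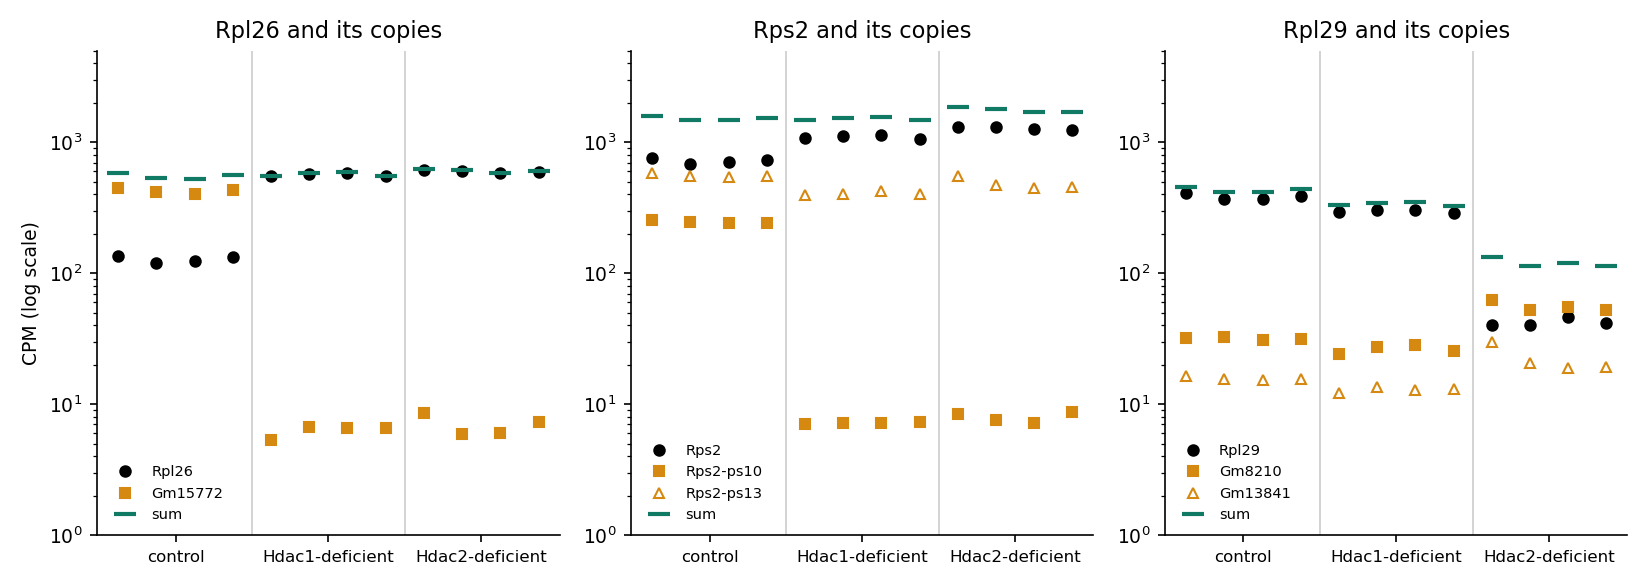
CPM (log scale) of Rpl26, Rps2 and Rpl29 (black) with their named copies (orange) and the sum of gene and copies (green dashes) in each of the 12 libraries, by group. For Rpl26, the copy falls from about 399.9 to 451 CPM in control to at most 8.62 in the mutants while the sum stays between 525 and 621; for Rpl29, the sum falls with the gene in Hdac2-deficient enteroids.

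Rpl29, a small protein of the large subunit without which mice are viable but short in stature, was low in Hdac2-mutant enteroids alone. It lies at chr9:106429454-106431568 on the plus strand. Its 2 abundant listed copies, Gm8210 on chromosome 1 and Gm13841 on chromosome 5, each differed at 3 of 483 aligned bases. The first of the 3 differences from Gm8210 (C72A, then C300T and T423C, counted from the first coding base of Rpl29) is shown for comparison with the Rpl26 pair, as the capital in 60 coding bases on the plus strand.
Rpl29, chr9:106430312-106430371: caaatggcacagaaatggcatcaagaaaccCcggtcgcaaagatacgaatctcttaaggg
Gm8210, chr1:43189197-43189256: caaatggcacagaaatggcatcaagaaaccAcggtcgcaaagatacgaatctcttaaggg
Rpl29 was at 409, 369.6, 369 and 391 CPM in control, at 295, 303, 306 and 290.5 in Hdac1-mutant and at 40.4, 40.3, 46.1 and 41.9 in Hdac2-mutant enteroids. The 3 groups did not overlap, and every Hdac2-mutant library lay far below all others. Gm8210 was between 30.7 and 32.5 CPM in control, between 24.2 and 28.3 in Hdac1-mutant and between 52.6 and 62.6 in Hdac2-mutant enteroids, and Gm13841 between 15.2 and 16.3, 12.1 and 13.6, and 18.8 and 29.7. Both copies fell with the gene in Hdac1-mutant enteroids, by 0.25 and 0.27 on the log2 scale, and rose in Hdac2-mutant enteroids, by 0.83 and 0.51, which was much less in CPM than the fall of the gene. Rpl29 changed by -0.35 (SE 0.04, adjusted p = 4.4e-08, edgeR) in Hdac1-mutant and by -3.18 (SE 0.04, adjusted p = 2.8e-21, edgeR) in Hdac2-mutant enteroids. Summed over the gene and its 22 listed copies, the level was 439.7 ± 20.5 CPM in control, 344 ± 9.54 in Hdac1-mutant and 127 ± 8.37 in Hdac2-mutant enteroids, and the log2 changes were -0.35 and -1.79.

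The genes differed much less between the mutants than between either mutant and control. In the direct comparison, with all 12 libraries in the fit, 10 small subunit genes were lower in Hdac1-mutant than in Hdac2-mutant enteroids, none was higher and 22 did not pass the test. Of the large subunit genes 18 were lower, 4 were higher and 26 did not pass. Of the 14510 genes tested, 23.7% were lower and 22.3% higher. The medians were -0.062 for the small and -0.071 for the large subunit, against 0.005 over all genes. Libraries did not overlap for 27 genes lower and 3 higher, against 22.1% and 19.7% of all genes. Rpl29 alone passed 2-fold, upward, where 2.74% of all genes did, and none passed it downward, where 2.89% did. The number of small subunit genes lower was not stable, as it was 5 when Hdac1-mutant replicate 1, Hdac1-mutant replicate 4 or Hdac2-mutant replicate 2 was left out.

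Rpl29 was higher in Hdac1-mutant enteroids by 2.83 (adjusted p = 2.2e-26, edgeR), or by 1.45 with copies added. Rpl35a, a Diamond-Blackfan anaemia gene, was at 419.8, 359, 356 and 401 CPM in control, at 293, 312, 312 and 284 in Hdac1-mutant and at 215, 213, 212 and 206 in Hdac2-mutant enteroids. It fell in steps without overlap, and the direct difference was 0.50 (adjusted p = 3.1e-08, edgeR). Rpl21, a large subunit protein, was at 783, 711, 698 and 758 CPM in control, at 545, 576, 587 and 554 in Hdac1-mutant and at 545, 460.1, 447 and 432 in Hdac2-mutant enteroids. The mutants touched at the first Hdac2-mutant library, and the difference was 0.26 (adjusted p = 0.0043, edgeR). Rpl15, part of the large subunit core, differed by 0.14 (adjusted p = 0.0013, edgeR), and by 0.00 (adjusted p = 0.93, edgeR) once copies were added.

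Rps24, a small subunit protein also mutated in Diamond-Blackfan anaemia, had the largest difference in the other direction. It was at 981, 879, 850.0 and 961 CPM in control, at 585, 609, 622 and 594 in Hdac1-mutant and at 816, 755, 717 and 730.2 in Hdac2-mutant enteroids. The 3 groups did not overlap, with Hdac1-mutant libraries lowest, and the direct difference was -0.32 (adjusted p = 3.7e-06, edgeR). Rps24-ps3, a copy on the X chromosome with 4 differences in 402 aligned bases, lay between 64.6 and 71.2 CPM in Hdac1-mutant enteroids and at or below 6.06 CPM in every other library. With copies added the direct difference of Rps24 was -0.16. Further genes lower in Hdac1-mutant enteroids were Rpl22l1 (-0.25), Rpl8 (-0.25), Rpl30 (-0.24), Rplp0 (-0.20), Rpl7 (-0.20), Rpl10 (-0.19) and Rpsa (-0.19).

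Copies of this kind are widespread. Over 50-base stretches of their transcripts, the 80 genes shared a median of 38.4% and at most 95.1% with another gene, and 28 genes shared more than 50% of their stretches. 498 listed copies were found by sequence or name, and they held between 0.247% and 0.271% of the counts in control, between 0.132% and 0.148% in Hdac1-mutant and between 0.13% and 0.144% in Hdac2-mutant enteroids. Of 245 copies tested in Hdac1-mutant enteroids 103 fell and 11 rose, where 31.9% of all genes tested were lower and 32.7% higher. Of 239 in Hdac2-mutant enteroids 121 fell and 7 rose, against 30.9% and 31.4%. The family as a whole kept its direction with copies added: 30 small and 46 large subunit genes fell in each mutant. Single copies also changed steeply. Rps13-ps1 went from between 46.6 and 57.5 CPM in control to at most 1.18 CPM in every mutant library, and Gm6472, a copy of Rps7, from between 60.2 and 66.8 CPM to between 23.1 and 26.4 in Hdac1-mutant and between 4.35 and 6.25 in Hdac2-mutant enteroids. How reads that match several places were counted is not given in the sources used here, and its part in these values was not tested.

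The 80 genes also moved together between libraries of one group. In control replicate 1 all 80 genes lay above their group mean, by a median of 0.097 on the log2 scale, and 79 genes did so in control replicate 4, by 0.038. In control replicates 2 and 3 all 80 lay below, by medians of -0.066 and -0.075. Within Hdac1-mutant enteroids 79 genes lay below the mean in replicates 1 and 4, and 80 and 78 lay above in replicates 2 and 3. Hdac2-mutant libraries were closer, with medians from -0.03 to 0.022. The genes are therefore not independent observations of a difference between groups, and the number that fell counts 1 shared movement many times. Without control replicate 1, the highest library, 79 genes still changed in Hdac1-mutant and 77 in Hdac2-mutant enteroids.

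**Figure D4:**
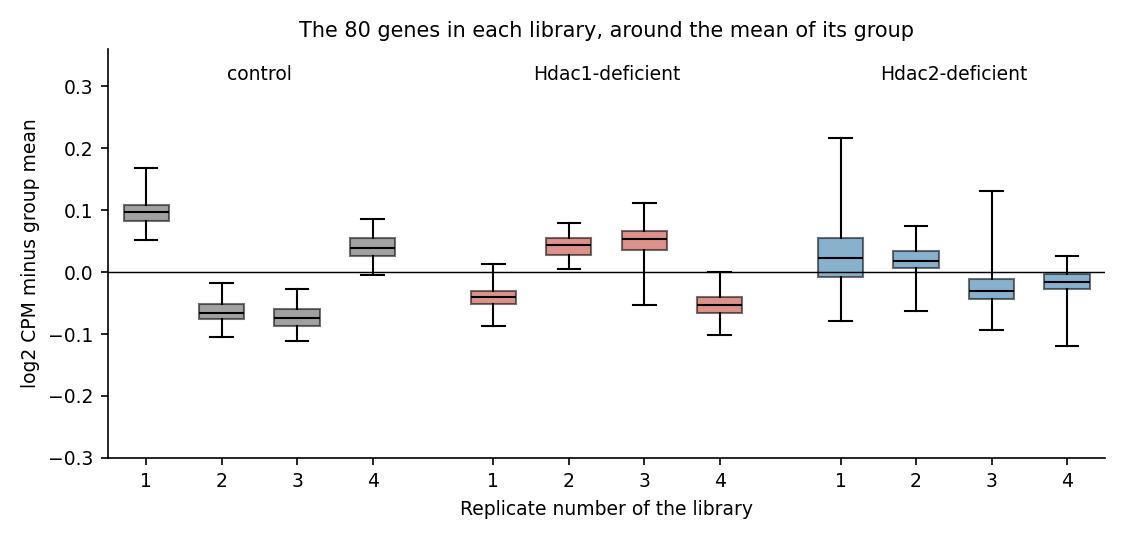
Log2 CPM of each of the 80 genes minus the mean of its group (vertical axis) in the 12 libraries. Boxes give quartiles and the median, and whiskers the full range. All boxes of a control library lie on one side of 0, with medians of 0.097, -0.066, -0.075 and 0.038 in replicates 1 to 4.

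Per kilobase of exon, the scale on which genes can be set beside each other, the 77 canonical genes spanned a 31.3-fold range in control. Rplp1 was highest at 2640.4 ± 139 CPM per kb, before Rplp0 (1626 ± 78.4), Rps15 (1388 ± 79.4), Rps3a1 (1255 ± 57.5) and Rpl4 (1240.1 ± 35.8). Rps15 sits at the decoding site, Rps3a1 on the small subunit platform and Rpl4 in the wall of the exit tunnel. The lowest were Rps15a (84.4 ± 5.61), Rpl26 (89.1 ± 5.19), Rpl34 (101 ± 7.28), Rpl35a (109 ± 8.95) and Rpl22 (142 ± 9.18). In 70 of 76 neighbouring pairs the ranges overlapped, so most adjacent ranks could not be separated. The order held at its top in all groups, with Rplp1, Rplp0 and Rps15 first. Rpl26 moved from rank 78 of the 80 genes in control to rank 34 in both mutants. Copies are left out here, and they held a mean of 76.9% of the CPM on Rpl26 and its listed copies in control. They held 1.66% in Hdac1-mutant and 1.56% in Hdac2-mutant enteroids. Rpl29 widened the range to 58.1-fold in Hdac2-mutant enteroids. Exon length here includes retained introns, and with the length of the principal transcript Rps12 went from rank 19 to rank 1, Rps14 from 32 to 3, and Rps15a from 79 to 54.

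**Figure D5:**
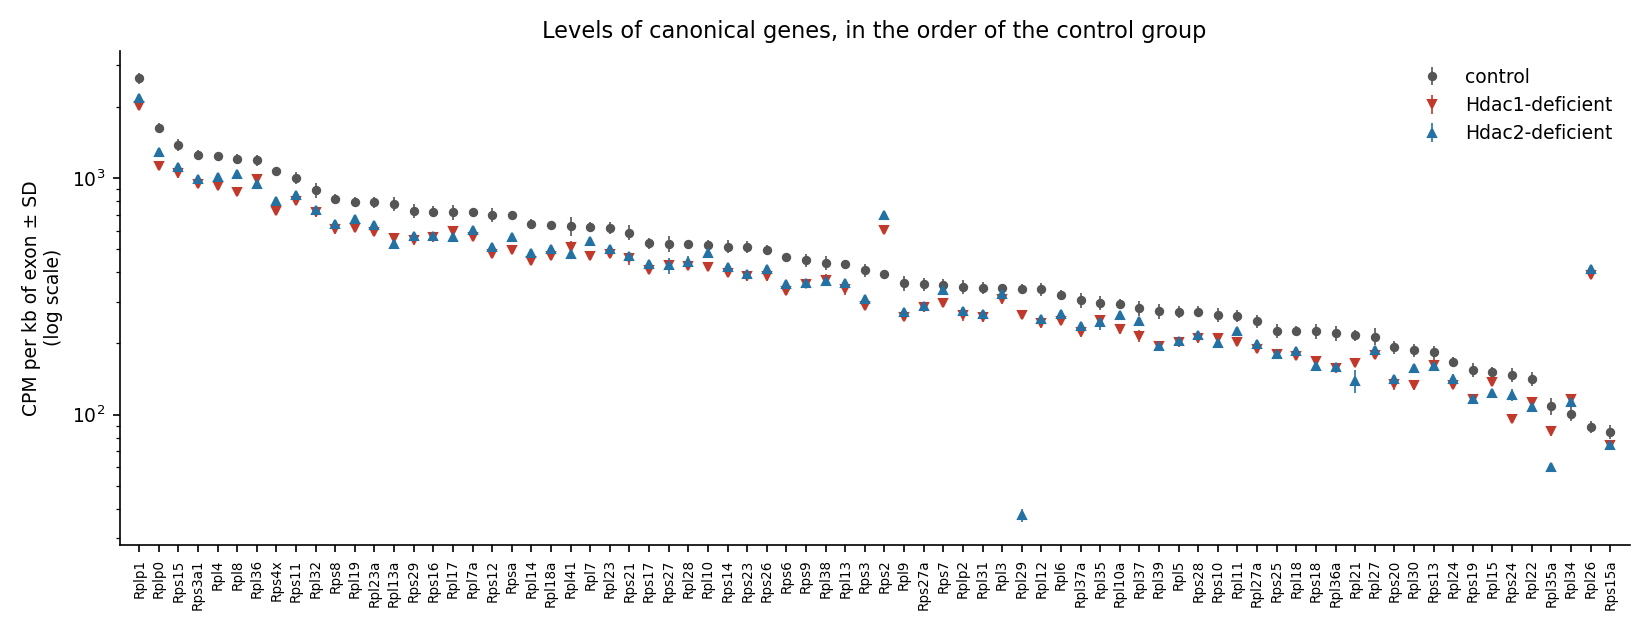
CPM per kilobase of exon ± SD (log scale) of 76 of the 77 canonical genes in the 3 groups, ordered by control. Rplp1 is highest at 2640.4 and Rps15a lowest at 84.4 in control; most mutant points lie below control, with Rpl26, Rps2 and Rpl34 above it and Rpl29 far below it in Hdac2-deficient enteroids.

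Other genes of the translation machinery were counted from fixed lists. Against these lists stand the 31.9% of all genes tested that were lower and 32.7% that were higher in Hdac1-mutant enteroids, and 30.9% and 31.4% in Hdac2-mutant enteroids. The elongation list of 13 genes mixed elongation factors with other genes, such as Npm1, Nap1l1, Rack1, Naca and Btf3. All 12 genes of it that were tested fell in both mutants, with medians of -0.329 and -0.258. These values do not describe elongation factors alone. Eef1b2, an exchange factor for elongation factor 1A, fell by 0.63 and 0.56, and Npm1, a nucleolar chaperone, by 0.66 and 0.47. Of 34 initiation factors 26 fell and 5 rose in Hdac1-mutant enteroids, and 20 fell and 5 rose in Hdac2-mutant enteroids, with medians of -0.223 and -0.125. Pabpc1, the poly(A)-binding protein and itself a message with an oligopyrimidine tract, fell by 0.51 and 0.20. Of 60 genes of RNA polymerase I and rRNA processing 37 fell and 6 rose, and 45 fell and 2 rose. Of the small nucleolar RNA host genes 8 of 14 fell and 2 rose in Hdac1-mutant enteroids, and 10 of 13 fell and none rose in Hdac2-mutant enteroids. Snhg8 fell by 0.79 and 0.80.

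Of 77 mitochondrial ribosomal protein genes 26 were lower and 7 higher in Hdac1-mutant enteroids, where 31.9% of all genes tested were lower and 32.7% higher. In Hdac2-mutant enteroids 32 were lower and 4 higher, against 30.9% and 31.4%, and the medians were -0.058 and -0.084. Of 22 genes of the mTORC1, LARP1 and MYC group 8 rose and 4 fell in Hdac1-mutant enteroids, and 8 rose and 7 fell in Hdac2-mutant enteroids. The shares that rose in both and that fell in Hdac2-mutant enteroids are near those of all genes just given, and the genes named next are among those of the list with the largest changes. Mycn, a transcription factor of the MYC family, rose from 0.498 ± 0.127 CPM in control to 2.67 ± 0.206 and 3.71 ± 0.238. Eif4ebp1, an inhibitor of cap-dependent translation, fell by 0.80 and 0.11, and Mxd1, a MAX partner that opposes MYC, rose by 0.41 and 0.87. Several of the steepest falls in these lists belong to chromosome 19, among them Fau (-0.83 and -0.69), which supplies a small subunit protein, Eef1g (-0.77 and -0.94) and Nolc1 (-0.83 and -0.71). There, the 471 and 461 protein-coding genes tested had medians of -0.527 and -0.516, and 75.8% and 77.9% were lower. None of the 80 genes lies on chromosome 19, and without that chromosome the mixed elongation list had medians of -0.298 and -0.248.

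Several sets of cell type markers differed between the groups as well. Beside their counts stand the shares of all genes tested, 32.7% higher and 31.9% lower in Hdac1-mutant enteroids. In Hdac2-mutant enteroids they were 31.4% and 30.9%. Stem cell markers summed to between 3861 and 4062 CPM in control, between 2182 and 2518 in Hdac1-mutant and between 1948 and 2124 in Hdac2-mutant enteroids, and 6 of 6 fell in each mutant. Proliferation markers summed to between 1341 and 1454, 1159.8 and 1268, and 1151 and 1186 CPM, with 5 of 7 lower and 1 higher in each mutant. Enterocyte markers summed to between 9822 and 10458, 18936 and 21476, and 15228 and 17035 CPM, and 10 of 10 rose in each mutant. Goblet markers had 3 of 7 higher and 1 lower in Hdac1-mutant and 6 higher in Hdac2-mutant enteroids, and Paneth markers 2 of 6 higher and 1 lower, and 5 higher. The goblet and Paneth counts that rose in Hdac1-mutant enteroids are near the share of all genes. Enteroendocrine markers had 6 of 8 higher and 1 lower, and 5 higher and 2 lower. Tuft markers, at most 7.84 CPM in sum, had 1 of 4 higher in Hdac1-mutant and 2 lower in Hdac2-mutant enteroids. Leukocyte markers stayed between 8.59 and 11.8 CPM, with Cd3e not listed. The part of the cell mixture in the lower ribosomal protein messages was not tested. Genes outside the family with under 1000 exonic bases had medians of -0.136 and -0.161.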

How the data were processed

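Poly(A)-selected RNA from 12 jejunal enteroid cultures was sequenced as paired 100 nt reads with a directional kit. Per the labels' processing notes the authors used bcl2fastq 1.8.4 and STAR 2.4.0f1 on GRCm38; the counting program and its treatment of reads with several matches are not given in the sources used here. The deposited tables, 1 per mutant against control, hold raw counts per gene and library, which were used here. Their normalized values, fold changes and p-values were not used.

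Counts were tested with edgeR 4.0.16 (R 4.3.3, limma 3.58.1; TMM, filterByExpr, robust quasi-likelihood F test, Benjamini-Hochberg over all genes tested, adjusted p at most 0.05), each mutant against control and the mutants directly over 12 libraries. SE is the log2 fold change divided by the square root of F. The script was tested on simulated data. P-values measure only the spread between these libraries, which may be technical. Same-numbered libraries did not deviate together (correlations from -0.139 to 0.15 over 12 pairs), so no block was used. Copies are listed pseudogenes sharing at least 1% of a gene's 50-base stretches, or named after it. Exon lengths and coordinates came from GENCODE on GRCm38. Genes and lists were chosen with earlier results of these data known. Named genes were the 3 largest changes per subunit, comparison and direction, those past 2-fold, paralogues with their parents, the P stalk, the 5S RNP, X-linked genes and the 5 highest and lowest levels; Rps7, Rpl3 and Rps13 were named after their values were seen. A few single-gene results are not reported here. Alternatives were DESeq2 1.42.0, other scalings, filters and thresholds, a replicate block, leaving out each library and adding copies, the last chosen after seeing the data.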

Additional observations from a re-analysis of the deposited data

Results flagged for a closer look

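Of 111 groups of 4 libraries (35 named genes and the shares of both subunits, in each of the 3 groups), 2 held a library far from the others, where chance gives about 1 in 20. Rpl15 was at 315 CPM in Hdac2-mutant replicate 1 and between 302 and 304 in the other libraries of that group. Rpl5 was at 825 CPM in Hdac2-mutant replicate 2 and between 789 and 791 in the others.

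In the direct comparison, 20 of the 35 named genes differed in level between Hdac1-mutant and Hdac2-mutant enteroids (log2 difference, Hdac1-mutant minus Hdac2-mutant, edgeR). Of all genes tested 22.3% were higher and 23.7% lower there, and some of the 35 were named for their large difference between the mutants, so the count is no result about the family. The difference was above 0 for Rpl29 (2.83), Rpl35a (0.50), Rpl21 (0.26) and Rpl15 (0.14). It was below 0 for Rps24 (-0.32), Rpl22l1 (-0.25), Rpl8 (-0.25), Rpl30 (-0.24), Rps2 (-0.21), Rpl7 (-0.20), Rplp0 (-0.20), Rpl10 (-0.19), Rpsa (-0.19), Rpl11 (-0.16), Rps4x (-0.15), Rpl4 (-0.13), Rpl14 (-0.11), Rplp1 (-0.11), Rps12 (-0.11) and Rpl26 (-0.09).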

How the results depend on the processing

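The direction of the family held under every alternative run: with DESeq2, 79 genes changed in Hdac1-mutant and 77 in Hdac2-mutant enteroids, and 31 between the mutants. With the replicate block the counts were 79, 77 and 31, and no paired count moved by over 1.5 times. Against a 1.2-fold threshold (glmTreat), 53 genes changed in Hdac1-mutant enteroids, with 20 small and 31 large subunit genes lower and 1 of each higher. In Hdac2-mutant enteroids 32 genes changed, with 13 small and 17 large subunit genes lower and 1 of each higher. Between the mutants 2 changed, both higher large subunit genes, with 0 lower in either subunit. With listed copies added, a choice made after seeing the data, 0 small and 1 large subunit genes rose in Hdac1-mutant and 1 large subunit gene rose in Hdac2-mutant enteroids, and Rps2 went from 0.63 to -0.0017 in Hdac1-mutant enteroids. At an adjusted p of at most 0.01, 20 genes differed between the mutants, 5 small and 11 large subunit genes lower. With library size alone 1 small subunit gene was higher and 5 lower there. Leaving out 1 library at a time gave 5 to 11 small subunit genes lower between the mutants, 24 to 36 changed in all and 77 to 79 changed in Hdac2-mutant enteroids. The cause of the differences between alternatives was not tested, except that a stricter threshold calls fewer genes by construction.

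Shares of counts in control, Hdac1-mutant and Hdac2-mutant enteroids were 3.23%, 2.56% and 2.63% for the small and 4.55%, 3.62% and 3.68% for the large subunit with the 50 most counted other genes out of the total. With mitochondrially encoded genes out, the shares in the same order were 2.88%, 2.27% and 2.34% for the small and 4.06%, 3.21% and 3.27% for the large subunit. With pseudogenes added, small subunit shares were 2.94%, 2.26% and 2.35%. Over single named genes and alternatives, 64 refitted values lost their call, 11 of them for the direct difference of Rpl26. Differences of about 0.1 log2 units are at the limit of what 4 libraries per group resolved.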
